A study of Oryctolagus cuniculus with 16 samples.

Results

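Matrix metalloproteinases are zinc-dependent enzymes that cut the proteins of the extracellular matrix, and TIMP1 is a secreted protein that binds their active sites and blocks them. They are made as inactive proenzymes that need a cut to become active, so a transcript level is not a level of enzyme activity. In a vein placed in the arterial circulation they are known for the matrix turnover that goes with leukocyte entry, smooth muscle cell migration and wall thickening. The genes described here are the collagenases MMP1 and MMP13, the gelatinases MMP2 and MMP9, the stromelysin MMP3, the macrophage elastase MMP12 and the inhibitor TIMP1. They were found by mapping the transcript accession of each array probe to a rabbit gene symbol. All 7 genes had at least 1 probe, with 18 probes in all among the 43603 non-control probes of the array, which stand for 23624 genes or unnamed transcripts. In the RefSeq annotation of the rabbit assembly mOryCun1.1, MMP1, MMP3, MMP12 and MMP13 are 4 protein-coding genes in a row.

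RNA was taken from vein tissue of male rabbits and hybridized to Agilent one-colour arrays of 45220 spots. The 3 groups were vein grafts removed on day 1 after surgery (6 arrays), vein grafts removed on day 7 after surgery (6 arrays) and veins of a sham surgery group (4 arrays). No other treatment or genotype was given for any group, the day on which the sham veins were taken was not given in the sources used here, and no source tied an array to a single rabbit. The study sought potential key genes of restenosis, the renewed narrowing of a vein graft. It compared day 7 grafts with sham surgery and used day 7 against day 1 as a control comparison. Day 1 arrays 1, 3 and 5, and likewise 2, 4 and 6, differed from each other by less than the spread between spots of the same probe, and the day 7 arrays fell into the same 2 sets. Such arrays were averaged, so that day 1 and day 7 were 2 samples each and sham was 4 samples, and the p-values measure only the spread between these samples, which may be technical. The variance between sham arrays was 14.3 to 15.1 times the spot noise across the pairs 1 with 2 and 3 with 4, against 1.89 and 1.25 within them, so that the sham group may be 2 samples. With the sham arrays averaged in these pairs, 12, 16 and 16 member probes were called, as with 4 samples. The 2 averaged sets of a graft group differed little more than spot noise. Their variance ratios spanned 1.28 to 1.44 (day 1) and 1.28 to 1.36 (day 7), between the 2 values within sham pairs. Each graft group may therefore be 1 sample, with SDs that are only technical. Whether the sets were separate samples was not tested. The sham arrays were scanned apart from all others, so scan and sham surgery cannot be told apart in any comparison with sham. Day 1 and day 7 arrays shared 3 scans, each with 1 array of every averaged day 1 and day 7 sample. Values within these scans therefore come from the same samples and are not independent repeats.

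Each array had 32973 to 36319 probes well above background, and precision is limited by the small number of arrays. Values are log2 signals after quantile normalization, written as mean ± SD over samples, and a difference is a log2 fold change from a single limma model over all 35762 probes tested. A probe was called a DEG (differentially expressed) at an adjusted p below 0.05 if its log2 fold change was also at or beyond 1 in size. Sham veins held the smooth muscle transcripts ACTA2 (18.20 ± 0.33) and MYH11 (16.67 ± 0.60) and the endothelial transcripts NOS3 (8.87 ± 0.14) and KDR (4.66 ± 0.35), all well above background on 4 of 4 sham arrays. For KDR this is the 1 of its 6 probes that was tested. A bulk sample cannot tell fewer cells of a type from less RNA per cell. Levels of different probes are not compared with each other, since probes differ in brightness.

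The 7 genes followed different courses over the 2 time points. MMP9 was highest on day 1 and lower, but still above sham, on day 7. MMP12, MMP13 and MMP1 reached their highest level on day 7, with 1 of the 3 MMP1 probes changing far less than the other 2. MMP3 and TIMP1 were already high on day 1 and at least as high on day 7. MMP2 was far below sham on day 1 and back near the sham level on day 7.

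Counted over the family, 12 of 18 probes were up-regulated DEGs on day 7 against sham, 0 were down-regulated (also 0 at an unadjusted p under 0.05 in limma) and 6, all of MMP2, were not called. In that comparison 32.9% of all probes tested were DEGs, 17.5% in the upward direction. On day 1 against sham, 10 probes were up-regulated, 6 were down-regulated and 2 were not called, where 49.8% of all probes tested were DEGs (25.2% up-regulated and 24.6% down-regulated). Of the 10 probes up on day 1, 2 were MMP13 probes that were not well above background on any sham or day 1 array, and with normexp background correction 8 were up. On day 7 against day 1, 15 probes were up-regulated, 1 was down-regulated and 2 were not called, against 39.9% of all probes (21.1% up-regulated and 18.8% down-regulated). The 15 probes, and the 12 up on day 7 against sham, each include the 3 MMP13 probes. These 3 were tested only because they were well above background on day 7, where they are high, so their calls are no support for a difference. The median log2 difference of the 18 probes was 4.13, 1.30 and 4.09 in these comparisons, beside 0.04, 0.12 and -0.03 for all probes. With probes under background in 1 group set at their bound it was 3.36, 2.94 and 3.36, where the 3 MMP13 probes, under background in both groups, were left out of the day 1 against sham median. Samples of the compared groups did not overlap on 17, 17 and 18 of the 18 probes, where the share over all probes was 72.1%, 82.2% and 90.0%, so the lack of overlap sets few probes apart. The 3 comparisons share their samples, and the 6 MMP2 probes, like the 3 of MMP1, MMP3 and MMP13, read the same RNA and are not independent of each other. With scaling to the 75th percentile, the all-probe DEGs on day 1 split into 12508 up-regulated and 7037 down-regulated (9017 and 8799 with quantiles), and those of day 7 against day 1 into 5940 and 11503 (7539 and 6741 with quantiles).

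**Figure D1:**
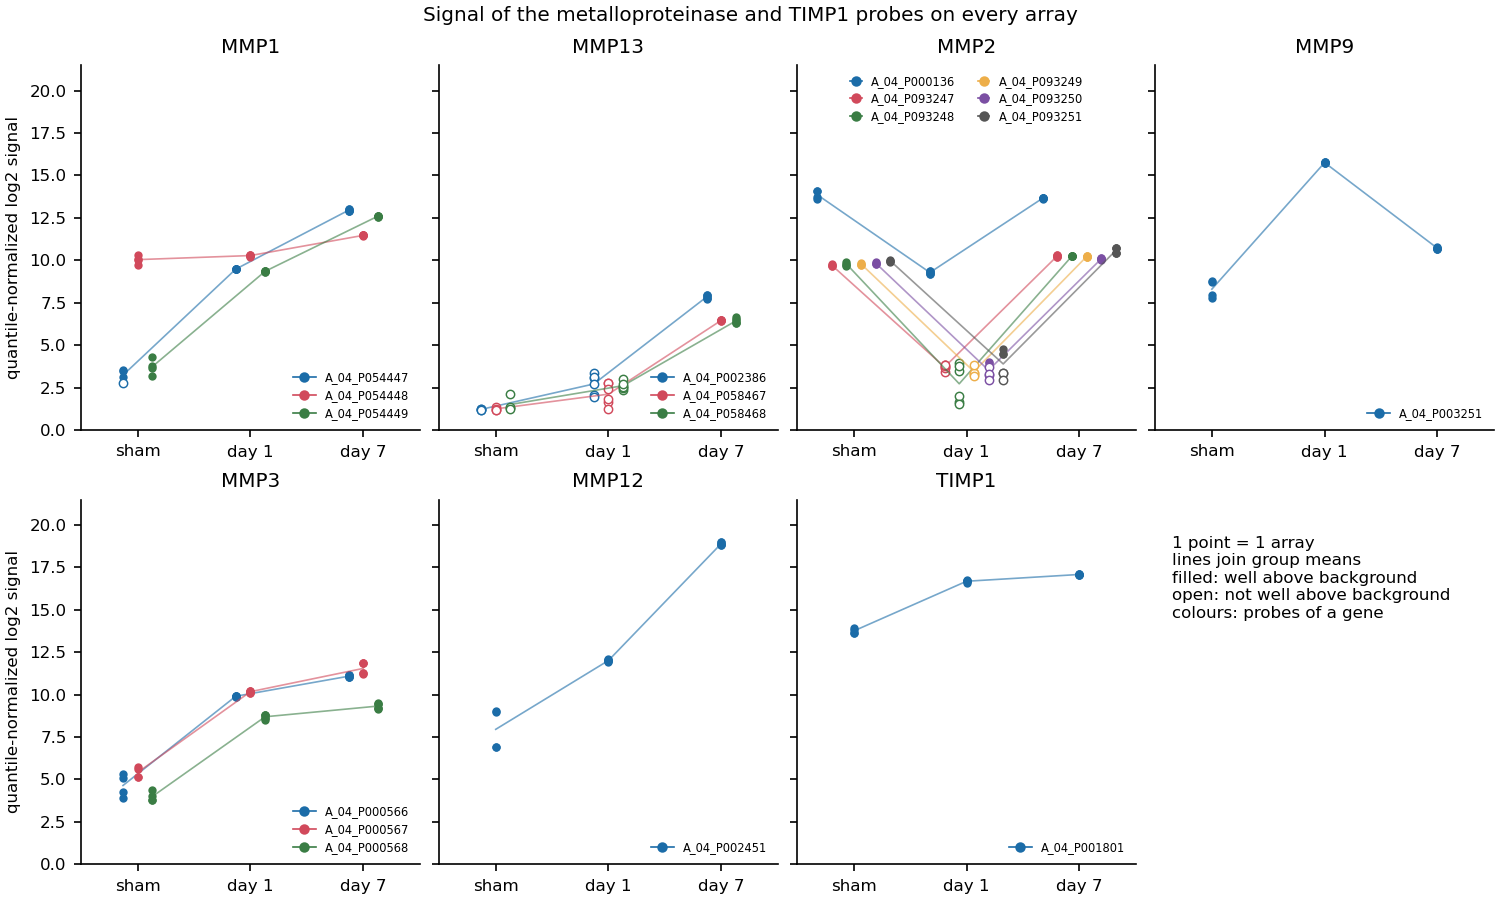
Quantile-normalized log2 signal (vertical axis) of each probe on each of the 16 arrays, by group (horizontal axis), with 1 panel per gene; filled points were well above background, open points were not, and lines join group means. MMP9 peaks on day 1, the 6 MMP2 probes dip on day 1, and 1 MMP1 probe stays near 10 in sham and day 1 while the other 2 climb from below 5; heights of different probes are not comparable.

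MMP12, the elastase named for its release by macrophages, showed the largest change of the family. Its probe A_04_P002451 gave log2 signals of 6.93, 6.90, 9.03 and 8.95 in the 4 sham samples, 12.06 and 11.95 on day 1 and 18.95 and 18.84 on day 7. No sample of a group overlapped another group, and sham samples 1 and 2 lay apart from sham samples 3 and 4. On day 7 MMP12 was 10.95 ± 0.69 (SE) above sham on the log2 scale, a 1970-fold difference (limma, adjusted p = 1.47e-05), which ranked 1 of the 35762 probes tested. On day 1 it rose by 4.06 ± 0.69, or 16.6-fold (limma, adjusted p = 0.00127), and between the time points it gained another 6.89 ± 0.79, or 119-fold (limma, adjusted p = 0.000277). The split of the sham samples set the size of the first 2 differences. Without sham samples 1 and 2 the day 7 difference was 9.91 and the day 1 difference 3.02, and without sham samples 3 and 4 they were 11.99 and 5.10, with the calls unchanged in these 4 fits. Within the 3 shared scans, which hold arrays of the same samples, the day 7 against day 1 difference was 6.85, 6.90 and 6.92.

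MMP9, the gelatinase that neutrophils store in granules and macrophages also secrete, was the member with a peak on day 1. Probe A_04_P003251 read 7.94, 7.78, 8.72 and 8.77 in sham, 15.78 and 15.74 on day 1, and 10.65 and 10.76 on day 7. The order day 1, day 7, sham held for every sample, with no overlap. MMP9 rose by 7.46 ± 0.30 on day 1 (176-fold, limma, adjusted p = 1.13e-06), which ranked 53 of all probes tested. On day 7 it was 2.40 ± 0.30 above sham (5.30-fold, limma, adjusted p = 0.000442). Between the 2 time points it fell by 5.05 on the log2 scale, a 33.2-fold difference (SE 0.35, limma, adjusted p = 2.71e-05), and it was the only member probe that was lower on day 7 than on day 1. The difference was -5.07, -5.07 and -5.02 within the 3 shared scans, which hold arrays of the same samples.

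MMP2, the gelatinase that smooth muscle cells and fibroblasts make without stimulation, moved the opposite way on day 1. Probe A_04_P000136 gave 13.61, 13.73, 14.06 and 14.09 in sham, 9.22 and 9.34 on day 1, and 13.64 and 13.68 on day 7. Both day 1 samples lay far below all others, and the day 7 samples lay among the sham samples. On day 1 this probe fell by 4.59 (24.1-fold, SE 0.16, limma, adjusted p = 6.02e-07), and from day 1 to day 7 it rose by 4.39 ± 0.18 (20.9-fold, limma, adjusted p = 4.21e-06). Against sham the day 7 difference was -0.21 with a 95% interval of -0.58 to 0.17, and it was not a DEG (limma, adjusted p = 0.294).

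The other 5 MMP2 probes (A_04_P093247 to A_04_P093251) had the same course. Their means were 9.71 to 9.96 in sham, 2.72 to 3.89 on day 1 and 10.09 to 10.59 on day 7. All 5 were well above background on every sham and day 7 array but on only 0 to 3 of the 6 day 1 arrays, so their day 1 level is close to the limit of the array. The 4 probes measured on at least 1 day 1 array fell on day 1, with differences of -6.00 to -6.34, and rose from day 1 to day 7, with differences of 6.55 to 6.78. These differences include day 1 arrays that were not well above background, so they are fitted values and not measured sizes. With normexp background correction the 4 probes had falls of -2.93 to -3.17 and rises of 3.29 to 3.73. For A_04_P093248, which was not well above background on any day 1 array, the sham level was at least 69.5-fold above day 1. The day 7 level was at least 96.8-fold above day 1. The adjusted p-values of 1.10e-05 and 3.40e-05 in limma belong to the fitted differences and not to these bounds. The fitted day 1 difference of this probe from sham changed 2.01-fold when either day 1 sample was left out, and only the bounds are given. For A_04_P093251 the falls and rises were -5.39 and 6.03 without day 1 sample 1 and -6.74 and 7.37 without day 1 sample 2. Day 7 and sham differed by 0.26 to 0.63 on these 5 probes, and 0 of the 6 MMP2 probes were DEGs in that comparison. On 2 of them, A_04_P093247 and A_04_P093249, the adjusted p was under the threshold (0.00193 and 0.0106 in limma) but the differences of 0.55 and 0.44 were below the fold criterion.

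MMP1, the interstitial collagenase that opens fibrillar collagen, rose strongly on 2 of its 3 probes. Probe A_04_P054447 gave 3.14, 2.76, 3.54 and 3.49 in sham, where 3 of 4 arrays were well above background, then 9.49 and 9.47 on day 1 and 13.01 and 12.90 on day 7. Probe A_04_P054449 gave 3.18, 3.78, 3.67 and 4.29 in sham, 9.35 and 9.34 on day 1 and 12.59 and 12.61 on day 7. On both probes the groups stood in the order sham, day 1, day 7 with no overlap. The day 1 rises were 6.25 ± 0.22 (76.0-fold) and 5.62 ± 0.27 (49.1-fold), with limma adjusted p = 6.40e-07 and 2.22e-06. By day 7 the rises against sham were 9.72 ± 0.22 (845-fold) and 8.87 ± 0.27 (467-fold), with limma adjusted p = 3.01e-07 and 7.55e-07, which ranked 5 and 14 of all probes tested. The steps from day 1 to day 7 were 3.47 ± 0.25 and 3.25 ± 0.31 (limma, adjusted p = 3.42e-05 and 0.000118). The sham values lay near the lowest signal well above background on the sham arrays (2.85 to 3.31), so the folds against sham depend on the background correction. With normexp background correction the rises were 2.87 and 2.74 on day 1 and 6.01 and 5.66 on day 7.

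The remaining MMP1 probe, A_04_P054448, disagreed with these 2 although the files give all 3 the same transcript. It read 10.07, 10.33, 9.75 and 10.03 in sham, 10.24 and 10.31 on day 1, and 11.48 and 11.47 on day 7. Day 1 overlapped sham here, with a difference of 0.23 and a 95% interval of -0.14 to 0.60 (limma, adjusted p = 0.211). On day 7 it rose by 1.43 ± 0.16 against sham (2.69-fold, limma, adjusted p = 0.000208) and by 1.20 ± 0.18 against day 1 (2.29-fold, limma, adjusted p = 0.000990). It was the brightest of the 3 over all samples, so a rule that keeps the brightest probe of a gene would report this smaller change for MMP1.

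MMP13, the second collagenase listed, was measurable only on day 7. Its 3 probes were not well above background on any of the 4 sham or 6 day 1 arrays, and they were well above background on 6 of 6 day 7 arrays. They passed the filter on dim probes only through day 7, the group where they are high, so their calls and their part in the member counts and medians are no support for a difference. The day 7 samples read 7.76 and 7.92 on A_04_P002386, 6.45 and 6.47 on A_04_P058467, and 6.32 and 6.55 on A_04_P058468. Against the lowest signal that counted as well above background, these levels were at least 27.9-fold, 10.7-fold and 10.5-fold above sham. Against day 1 they were at least 18.6-fold, 7.16-fold and 7.01-fold higher. The p-values of these probes are not given, since they test fitted differences on signals under the background limit. The measured means on A_04_P002386 were 1.21 ± 0.03 in sham and 2.71 ± 0.50 on day 1, both under the limit, so no fold is given between them. With another background correction the 2 smaller MMP13 probes were 0.98 and 0.99 above sham and 0.93 and 0.91 above day 1, just short of the DEG criterion.

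MMP3, the stromelysin that cuts proteoglycans and can also activate other proenzymes of the family, was high at both time points. Probe A_04_P000567 gave 5.62, 5.74, 5.12 and 5.15 in sham, 10.21 and 10.12 on day 1, and 11.85 and 11.24 on day 7. All 3 probes, A_04_P000566 to A_04_P000568, were well above background on every array and did not overlap between groups. They rose by 4.70 to 5.26 on day 1 (25.9-fold to 38.2-fold) and by 5.33 to 6.44 on day 7 (40.2-fold to 86.7-fold) against sham, with adjusted p from 1.15e-06 to 1.51e-05 and from 1.43e-06 to 1.11e-05 in limma. The step from day 1 to day 7 was small beside these rises. It was 1.38 ± 0.28 on A_04_P000567 (limma, adjusted p = 0.00432), 1.18 ± 0.44 on A_04_P000566 (limma, adjusted p = 0.0494) and 0.63 ± 0.22 on A_04_P000568, which was not a DEG (limma, adjusted p = 0.0411). The call on A_04_P000566 was lost in 9 of 21 alternatives, among them each fit without a day 1 or day 7 sample, where its difference stayed between 1.13 and 1.23 with adjusted p up to 0.159 in limma.

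TIMP1, the inhibitor of the secreted enzymes, was above sham at both time points. Probe A_04_P001801 read 13.95, 13.78, 13.65 and 13.60 in sham, 16.72 and 16.65 on day 1, and 17.10 and 17.05 on day 7. Every graft sample was above every sham sample, and the day 7 samples were slightly above the day 1 samples. The rise against sham was 2.94 ± 0.12 on day 1 (7.66-fold, limma, adjusted p = 1.10e-06) and 3.33 ± 0.12 on day 7 (10.1-fold, limma, adjusted p = 1.38e-06). The day 7 against day 1 difference was 0.39 with a 95% interval of 0.07 to 0.72 (limma, adjusted p = 0.0405), below the fold criterion. With arrays scaled to their 75th percentile instead of quantiles it was 1.17 and a DEG (limma, adjusted p = 0.000333). On that scaling the median of all probes was -0.35, so TIMP1 stood above it in either case.

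**Figure D2:**
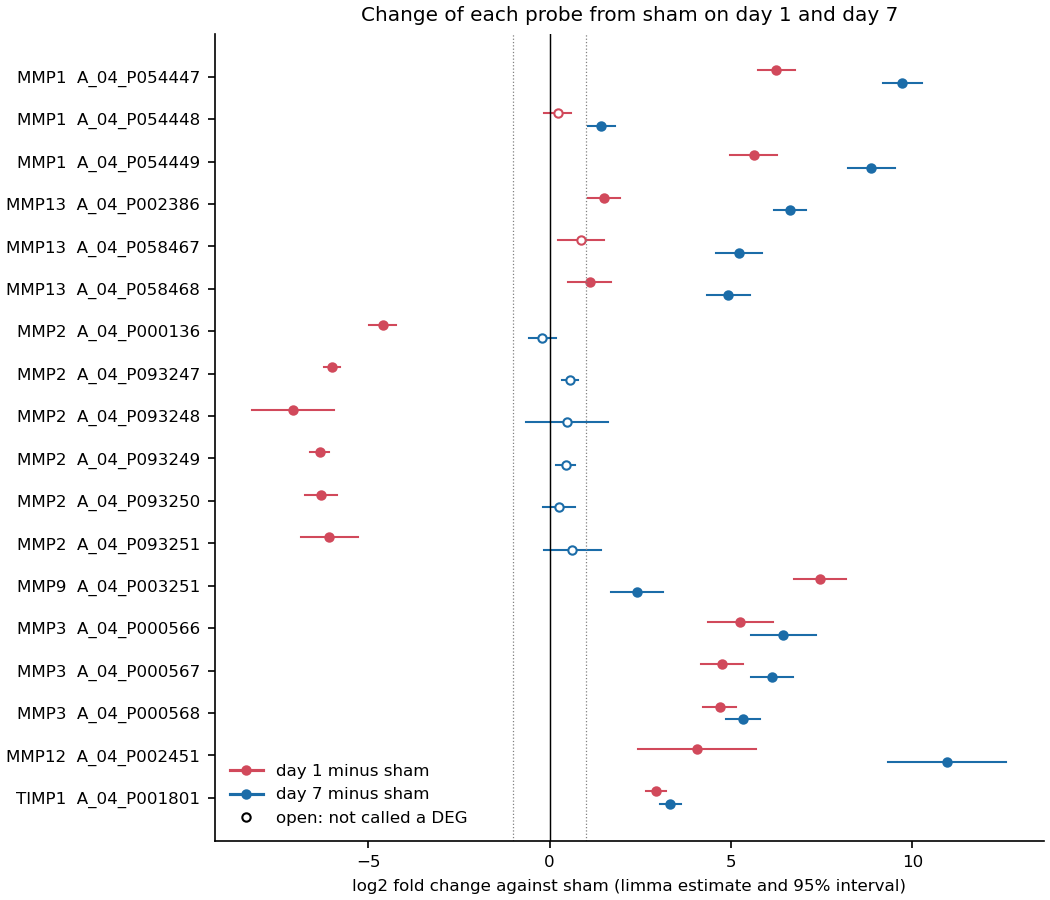
Log2 fold change against sham (horizontal axis) of each of the 18 probes (vertical axis) on day 1 and on day 7, as limma estimates with 95% intervals; open points were not DEGs and dotted lines mark a log2 fold change of 1. MMP2 lies left of 0 on day 1 and near 0 on day 7, MMP9 lies farther right on day 1 than on day 7, and MMP12 reaches 10.95 on day 7; MMP13 in sham and on day 1, and MMP2 A_04_P093248 on day 1, were not well above background, so those points are fitted values and not measured sizes. MMP2 A_04_P093247 and A_04_P093249 to A_04_P093251 were well above background on at most 3 of 6 day 1 arrays, so their day 1 points are fitted values too.

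The other genes of the pathway came from 6 lists of 95 genes, of which 30 had a named probe and 29 were tested, each by its brightest probe. On day 7 against sham 13 of the 29 were up-regulated, 7 were down-regulated and 9 were not called. On day 1 against sham the numbers were 10, 10 and 9, and on day 7 against day 1 they were 9, 8 and 12. With 1 probe per gene over the whole array, 3380 of 19328 were up-regulated and 2643 down-regulated on day 7 against sham. The numbers were 5558 and 4280 on day 1 against sham, and 3721 and 4293 on day 7 against day 1. The lists were described by counts, and no list was tested as a set.

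Among the other metalloproteinases, MMP10, a second stromelysin, was the only gene tested of 16 listed. It rose by 4.49 ± 0.60 on day 1 (limma, adjusted p = 0.000374) and by 2.98 ± 0.60 on day 7 (limma, adjusted p = 0.00427) against sham, with 5 of 5 probes called in both. MMP14, the membrane enzyme that activates pro-MMP2, had 5 probes, and none passed the filter on dim probes. The 2 other inhibitors tested, of 5 listed, went the opposite way to TIMP1 by day 7. TIMP4 fell by 5.67 on day 1 and by 6.29 on day 7 (SE 0.67 for both, limma, adjusted p = 0.000198 and 0.000193), and it was well above background on 3 of 6 day 7 arrays. TIMP3, which is bound to the matrix, had a day 1 difference of -0.79 and was not a DEG, and it fell by 2.99 on day 7 (SE 0.11, limma, adjusted p = 1.32e-06).

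Among the genes of proenzyme activation, 4 of 16 were tested. SERPINB2, an inhibitor of plasminogen activators, rose by 4.20 ± 0.11 on day 1 and by 2.17 ± 0.11 on day 7, and CTSK, a cysteine protease that digests collagen, by 1.32 ± 0.11 and 1.81 ± 0.11. PLAU, the urokinase plasminogen activator, rose by 1.82 ± 0.33 on day 7 on its brightest probe, with 2 of its 3 probes called. On day 1 its probes ranged from -1.05 to 0.77, where 1 of 3 was called lower and the brightest, at 0.64, was not called. PLAT, the tissue plasminogen activator, fell by 1.31 on day 1 (SE 0.12) and differed by 0.17 on day 7, which was not called. ADAM9, a membrane metalloprotease, was the only called gene of the 2 ADAM genes tested of 12 listed, and it turned direction. It fell by 1.39 on day 1 and rose by 2.06 on day 7 (SE 0.26 for both, limma, adjusted p = 0.00212 and 0.000447), with 3 of 3 probes called each time.

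The matrix proteins that these enzymes cut were mostly down on day 1. Of 8 tested of 23 listed, 5 were down-regulated and 1 was up-regulated on day 1 (median -2.80), and 1 was down-regulated and 2 were up-regulated on day 7 (median 0.22). Over all probes tested, 24.6% were down-regulated and 25.2% up-regulated on day 1, and 15.4% and 17.5% on day 7. On day 1 the proteoglycans BGN and LUM had differences of -5.00 and -3.50 and the collagen COL5A2 of -3.18, all called, while SPP1 (osteopontin) rose by 3.31. On day 7 the proteoglycan VCAN rose by 3.60 ± 0.32 and COL5A2 by 1.58 ± 0.15, and DCN, a collagen-binding proteoglycan, fell by 1.89 (SE 0.10). The call of DCN rested on 2 of its 6 probes, whose differences ran from -1.89 to 0.01.

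Of 12 inducers and regulators tested of 23 listed, 6 were up-regulated and 2 down-regulated on day 1, and 6 were up-regulated and 4 down-regulated on day 7. The shares over all probes tested were 25.2% and 24.6% on day 1, and 17.5% and 15.4% on day 7. The cytokine IL1A, a known inducer of several metalloproteinase genes, rose by 10.22 ± 0.18 on day 1 and 9.70 ± 0.18 on day 7, and its 4 probes ranged from 5.16 to 10.22 on day 1. TNF rose by 7.93 ± 0.16 and 6.27 ± 0.16, and IL1B by 6.82 ± 0.58 and 6.73 ± 0.58. IFNG rose by 5.90 ± 0.44 on day 1 on its brightest probe, while its other probe differed by 0.93 and was not called. On day 7 IL6 rose by 3.84 ± 1.28, and the sham samples of IL6 had an SD of 2.24. From day 1 to day 7 CSF2 rose by 2.39 ± 0.11, while IFNG fell by 2.54, TNF fell by 1.65 and JUN fell by 1.18.

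**Figure D3:**
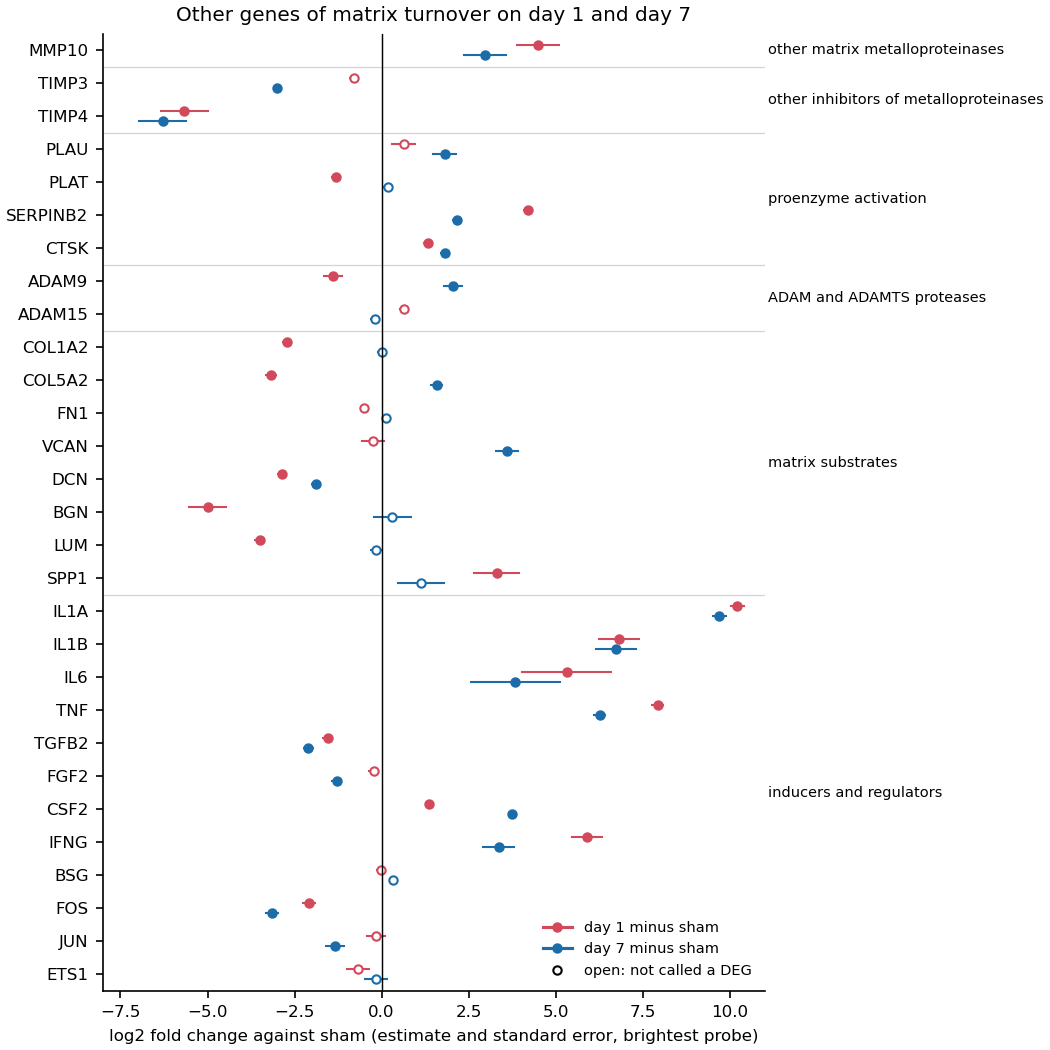
Log2 fold change against sham (horizontal axis, estimate and standard error) of the brightest probe of 29 other genes of matrix turnover (vertical axis, grouped by list) on day 1 and on day 7; open points were not DEGs. TIMP4 lies left of 0 at both time points, ADAM9 and COL5A2 change sides, and IL1A, TNF and IL1B lie to the right at both.

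Markers of several cell types moved along with these genes, and their part in the results was not tested. Macrophage markers (CD14 and MSR1, 2 of 7 listed) had a summed signal of 1840 to 3900 in sham, 137000 to 141000 on day 1 and 105000 to 114000 on day 7, so they were high at both time points, as MMP3 and TIMP1 were. Neutrophil markers (S100A8, S100A9 and CXCR2, 3 of 7) had 9610 to 28200 in sham, 676000 to 682000 on day 1 and 102000 to 111000 on day 7, a peak on day 1 like that of MMP9. S100A8 and S100A9 carried this sum, with means of 18.61 and 18.08 on day 1. CXCR2 also peaked on day 1, with means of 7.67, 9.39 and 7.47 in sham, on day 1 and on day 7. Its day 7 difference from sham of -0.20 was not called. Smooth muscle markers (ACTA2, MYH11 and DES, 3 of 7) had 315000 to 527000, 11700 to 12100 and 198000 to 234000, and fibroblast markers (COL1A2, LUM and DCN, 3 of 7) 1010000 to 1060000, 139000 and 810000 to 833000 in sham, on day 1 and on day 7. Both sums were lowest on day 1, as MMP2 was, but ACTA2 carried the smooth muscle sum. ACTA2 was at 13.06 ± 0.05 on day 1 and 17.71 ± 0.17 on day 7. MYH11 had its lowest mean on day 7, at 11.34 ± 0.02 on day 1 and then 10.18 ± 0.46. So did DES on its brighter probe, at 9.64 ± 0.07 and then 7.69 ± 0.18, and neither of these steps was called. The dimmer DES probe was lowest on day 1, with differences from sham of -6.84 on day 1 and -6.31 on day 7. Its step of 0.53 from day 1 to day 7 was not called. Endothelial markers (KDR and NOS3, 2 of 7) fell from 458 to 553 in sham to 192 to 196 on day 1 and 62.2 to 65.5 on day 7, and KDR was well above background on 0 of 6 arrays on each of those days. NOS3 carried this sum, with means of 8.87, 7.57 and 5.92 in sham, on day 1 and on day 7, beside 4.66 for KDR in sham. Of the 6 KDR probes 1 was tested, and it passed the filter on dim probes only through sham, so its fall is no support for a difference. T cell markers (2 of 6) went from 56.9 to 65.6 in sham to 225 to 250 and then 127 to 132, where CD4 had its highest mean on day 1 (4.99, 7.62 and 4.86 in sham, on day 1 and on day 7) and CD3E on day 7 (4.84, 5.35 and 6.65). The sums of adipocyte markers (2 of 4) went from 429 to 1150 down to 57.4 to 57.6 and 55.7 to 58.1. These 2 markers differed in course, with means of 9.36, 2.33 and 4.89 for ADIPOQ in sham, on day 1 and on day 7. The means of LEP were 5.28, 5.71 and 4.76. The sums of red cell markers (2 of 6) went from 730000 to 1080000 to 1120000 and then 747000 to 758000. No named marker was at 0, and ADIPOQ was well above background on 0 of 6 day 1 arrays.

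**Figure D4:**
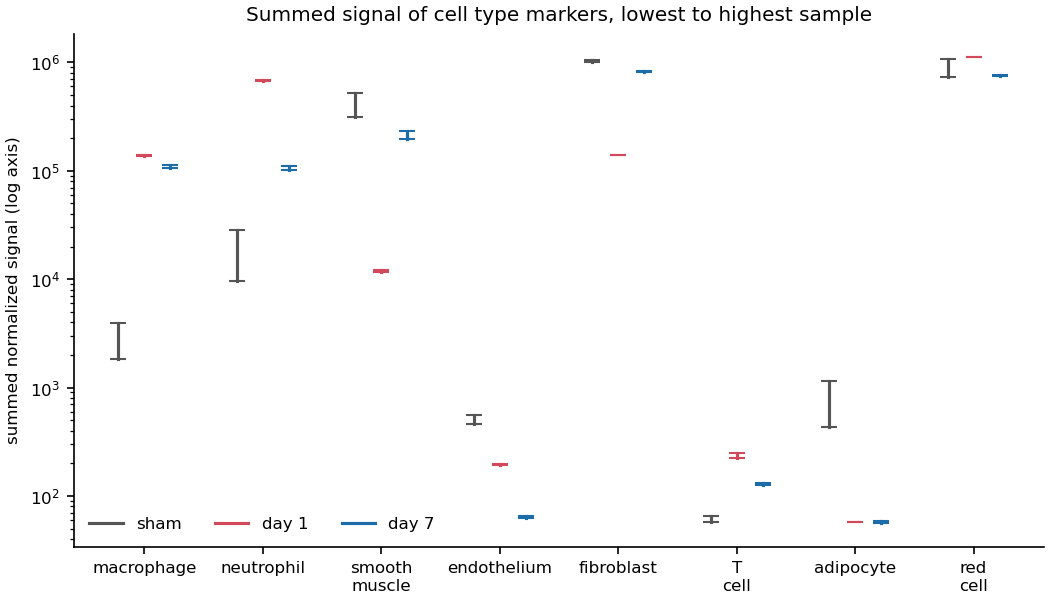
Summed normalized signal on a log axis (vertical) of the named markers of each cell type (horizontal), drawn from the lowest to the highest sample of each group. Smooth muscle and fibroblast sums are lowest on day 1, and the neutrophil sum is highest on day 1; heights compare groups within a cell type only.

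The genes most alike were sought among 2000 other named genes by the root mean square difference, over the 8 samples, in log2 change from the sham mean. For MMP9 these were ATP2A1, a muscle calcium pump gene (0.50), and LOC100344919 (0.69), with day 1 changes of 7.26 and 6.37 and day 7 changes of 1.49 and 2.94. For MMP12 they were ARG1 (arginase, 0.97) and XDH (xanthine dehydrogenase, 1.38), and the same pair came first for MMP1 on A_04_P054447 (XDH 0.98 and ARG1 1.01). For MMP1 on its brightest probe they were VAPA and FUT8 (0.14 each). For MMP2 on A_04_P000136 they were PPP2R5D (0.14) and C1S, a complement protease (0.25), with day 1 changes of -4.60 and -4.91 and day 7 changes of -0.08 and 0.11. For MMP3 on A_04_P000567 they were CD38 (0.58) and LOC100338913 (0.64), for MMP13 on A_04_P002386 RLA-DR-ALPHA, a class II antigen-presenting molecule (0.71), and CYBB, an NADPH oxidase subunit (0.75), and for TIMP1 LOC100353676 (0.17) and MCP2 (0.20). A small difference says only that the 2 courses over the same samples were close. For MMP13 the sham and day 1 signals were not well above background, so its changes from the sham mean are not measured sizes.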

How the data were processed

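Probe intensities of 16 arrays were deposited by the authors as background-subtracted signals of Agilent Feature Extraction (11.0.1.1 in the file headers, 9.1 in the submitters' processing notes), with well-above-background and outlier calls. The authors also deposited log2 values, quantile-normalized and filtered in GeneSpring, which hold 15 of the 18 member probes. Here, outlier spots were left out (1.46% of spots on at least 1 array), log2 intensities were quantile-normalized, spots of a probe and arrays differing by less than spot noise (variance ratio up to 1) were averaged, and every probe that all arrays of some group had well above background was fitted in R 4.3.3 with limma 3.58.1 (tables with data.table, version 1.17.8; figures with Python 3.11.15, pandas 2.3.3 and matplotlib 3.10.9). The 3 contrasts shared 1 model, and p-values are two-sided with Benjamini-Hochberg adjustment. The procedure was tested on simulated data. Probes were named by RefSeq accession (3368) or EntrezGeneID (2816), 6184 in all. From each list, up to 4 called genes with the largest change were named, and the 2 genes most alike per member. IFNG's second probe, MMP14 and the uncalled values of TIMP3, PLAU and PLAT were not chosen by that rule. Members and lists were chosen with earlier results of these data known. Alternatives were 16 separate arrays, the authors' values, 75th percentile scaling, normexp (offset 50), no filter, 1 probe per gene, paired sham arrays, replicate and scan blocks, single scans, samples left out, and, added after seeing the data, pairs of sham samples left out. A bound uses the lowest signal well above background on each array.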

Additional observations from a re-analysis of the deposited data

Results flagged for a closer look

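The change from sham differed between day 1 and day 7 on 16 of the 18 probes, by the test of day 7 against day 1 in limma, where 39.9% of all probes tested were called. The log2 differences were 3.47, 1.20 and 3.25 for MMP1 (A_04_P054447, A_04_P054448 and A_04_P054449), 6.89 for MMP12, and at least 4.22, 2.84 and 2.81 for MMP13 (A_04_P002386, A_04_P058467 and A_04_P058468). They were 4.39, 6.55, at least 6.60, 6.78, 6.56 and 6.70 for MMP2 (A_04_P000136 and then A_04_P093247 to A_04_P093251), 1.18 and 1.38 for MMP3 (A_04_P000566 and A_04_P000567), and -5.05 for MMP9. The 3 MMP13 probes and MMP2 A_04_P093248 were not well above background on day 1, so their values are bounds. MMP2 A_04_P093247 and A_04_P093249 to A_04_P093251 were well above background on at most 3 of 6 day 1 arrays, so their values are fitted and not measured sizes. Since the MMP13 probes passed the filter only through day 7, their calls are no support for a difference. In the sham group of 4, a single sample stood apart on 1 of 18 probes, MMP13 A_04_P058468, where sham sample 1 read 2.11 and the others 1.26 to 1.34 (gap over range 0.906, above the 95% critical value of Dixon's test). All 4 values were not well above background, and chance flags about 1 in 20 such groups.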

How the results depend on the processing

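Of the 18 probes in 3 comparisons, MMP2 A_04_P000136 on day 7 against sham was the only value to change sign, from -0.21 to 0.04 with scaling to the 75th percentile, and it was not a DEG in either. Over all probes that scaling moved the median from 0.12 to 0.47 on day 1 against sham and from -0.03 to -0.35 on day 7 against day 1. For day 7 and then day 1 against sham, followed by day 7 against day 1, the counts of called member probes were 6, 6 and 6 with 1 probe per gene, where 7 probes were tested. The same setting gave 6023, 9838 and 8014 DEGs of 19328 over all probes (11756, 17816 and 14280 of 35762 otherwise) and 20, 20 and 17 of 29 on the pathway lists (63, 79 and 67 of 105 otherwise), since fewer probes were tested. Normexp background correction gave 6918, 10458 and 7324 DEGs over all probes and 10, 14 and 14 among the members. The MMP13 calls on day 1 against sham were lost on A_04_P002386 and A_04_P058468 (0.09 and 0.07, limma adjusted p = 0.199 and 0.288). It shrank the changes of dim probes: MMP1 A_04_P054447 on day 7 against sham went from 9.72 to 6.01, MMP3 A_04_P000566 from 6.44 to 3.87, and the 4 MMP2 probes measured on some day 1 arrays lay on day 1 between -2.93 and -3.17. This setting adds an offset of 50 to every corrected intensity before log2, and the part of that offset in the shrinkage was not tested. On day 1 against sham, MMP13 A_04_P058467 was called without day 1 sample 1 (1.42) and A_04_P058468 was not without sham samples 3 and 4 (0.90), both on signals under the background limit. Leaving out single samples gave 12 called member probes on day 7 against sham each time, 16 to 17 on day 1 against sham and 15 to 16 on day 7 against day 1. It gave 10744 to 11845, 16922 to 17998 and 12839 to 14449 over all probes, and 56 to 66, 76 to 79 and 62 to 69 on the pathway lists. With the replicate number as a block, and 16 separate arrays, 12, 16 and 16 member probes were called, and the block changed no member's call. Same-numbered day 1 and day 7 arrays shared a scan, and the deviations of same-numbered arrays correlated between -0.02 and 0.05. Depth is not known for arrays, but their brightness differed between groups. Before normalization the 75th percentile intensity was 863 to 1020 on day 1 arrays, 2490 to 2830 on day 7 arrays and 1330 to 2030 on sham arrays. The part of brightness in the probes under background on day 1 was not tested. A change of a probe not well above background in a group can only be given as a bound.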
